A study of Homo sapiens with 19 samples.

Results

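The genes described here are 29 genes of sterol and fatty acid synthesis and of the system that regulates them, chosen by name, by a rule that uses no measured value. Earlier results of these data were known when the list was chosen. They were read by gene symbol from the 3 RNA tables of a study of EGR1 in lymphoma cells, and all 29 were found among the 25365 genes of the OCI-LY10 table, the 25267 of the TMD8 table and the 25266 of the SUDHL2 table. They comprise 6 genes of the mevalonate steps, 3 of the squalene and lanosterol steps, 8 of the steps between lanosterol and cholesterol, 4 regulators, a sterol carrier (STARD4) and a thiolase (ACAT2), 5 genes of fatty acid synthesis and the phosphatidate phosphatase LPIN1. The 3 lines, OCI-LY10, TMD8 and SUDHL2, were established from diffuse large B-cell lymphoma of the activated B-cell-like type. Each was transduced with a doxycycline-inducible hairpin RNA, either shEGR1#8 or shEGR1#9 against EGR1 or a control hairpin, and all cells, controls included, were induced with doxycycline at 20 ng/ml for 2 days. OCI-LY10 has 3 libraries of each hairpin (9 in all), and the TMD8 and SUDHL2 labels have 1 library of each. Whether a line is a pool of transduced cells or a clone is not given in the sources used here.

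Cells make cholesterol from acetyl-CoA through mevalonate, farnesyl diphosphate, squalene and lanosterol, and they make fatty acids from the same precursor. Most genes of both pathways are switched on by the sterol regulatory element binding proteins, which are made as inactive precursors in the endoplasmic reticulum membrane from the genes SREBF1 and SREBF2. When sterols are scarce, the escort protein SCAP carries the precursors to the Golgi for cleavage, and when sterols are plentiful INSIG1 holds SCAP back. Both pathways supply membrane to dividing cells, lymphoma cells among them. EGR1 is an immediate early transcription factor that is induced by antigen receptor and growth factor signals.

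The hairpin labels were first set against the level of their target. EGR1 read 10.04, 11.4 and 20.5 FPKM in OCI-LY10 libraries labelled shEGR1#8, 10.8, 11.8 and 22.7 FPKM in those labelled shEGR1#9, and 8.57, 9.59 and 12.3 FPKM in control libraries. It was therefore not lower in libraries with an EGR1 hairpin label, and the log2 difference of 0.42 (SE 0.267, limma adjusted p = 0.349) lay within the spread of the libraries. Under the TMD8 label EGR1 read 10.8 (shEGR1#8) and 9.95 (shEGR1#9) FPKM, against 7.31 in the control, and under the SUDHL2 label 13.7 and 15.4 FPKM, against 17.0 in the control. The target was thus not shown to be lower than control in OCI-LY10, read higher than control under the TMD8 label, and every direction given here rests on the labels alone. The TMD8 and SUDHL2 tables also lie close together. Only 1 gene was at 5 FPKM or more in every library of one of them and at 0.5 or less in every library of the other, against 303 genes between OCI-LY10 and TMD8 and 322 between OCI-LY10 and SUDHL2. These 6 libraries are named by their labels, and whether they are 2 cell lines was not tested. Their Pearson correlations across genes were 0.8933 to 0.9145 within the TMD8 label and 0.9046 to 0.925 within the SUDHL2 label. Between the 2 labels they were 0.8671 to 0.9297, so the ranges overlapped. The closest pair was TMD8 shEGR1#9 and the SUDHL2 control. All 7 B-cell marker genes reached 1 FPKM in every group, while 8 liver and fat cell markers stayed under 1 FPKM in every library and all read 0 in OCI-LY10. The summed B-cell markers ran from 2316 to 2590 FPKM (shEGR1#8) and 2353 to 2452 FPKM (shEGR1#9) in OCI-LY10, against 2034 to 2162 FPKM in control, and from 581 to 780 FPKM in the other 6 libraries. Of the fibroblast and epithelial markers only EPCAM was above 1 FPKM in OCI-LY10, and that list summed to 24.1 to 45.1 FPKM under the TMD8 and SUDHL2 labels, where EPCAM read 0. Markers of T, NK and myeloid cells summed to at most 3.62 FPKM in any library.

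Read totals are unknown, since the tables hold no counts. In OCI-LY10 the values of very low genes put the worth of 1 read at −0.37 to 0.60 log2 units relative to control replicate 1, with shallower libraries at the higher values, and the shallowest were shEGR1#8 replicates 3 and 1 (0.60 and 0.57). The same estimate, relative to the control of each table, was 1.96 (shEGR1#8) and 1.76 (shEGR1#9) under the TMD8 label and 0.58 and 0.60 under the SUDHL2 label. These are rough estimates of depth. The share of these genes in a whole-number ratio was 24.8 to 33.1% in OCI-LY10. It was 10.4 and 8.33% under the TMD8 label and 88.2 and 81.3% under the SUDHL2 label (shEGR1#8 and shEGR1#9). Among all 9 libraries, shEGR1#8 replicate 3 stood apart, with the highest value of 28.3% of the tested genes and the lowest of 26.8%. It had the highest value for 10 of the 29 genes and the lowest for 5. The share of the FPKM sum taken by genes of short RNAs was 0.462 to 0.603% in OCI-LY10, but 63.1% (shEGR1#8) and 60.5% (shEGR1#9) under the TMD8 label against 36.3% in its control, and 54.9% and 53.6% under the SUDHL2 label against 55.3% in its control.

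Sterol regulatory element binding proteins act on the DNA just upstream of their target genes, so upstream sequences are shown for a few of the 29. RefSeq promoters (GRCh38.p14) were matched by symbol for 25 of the 29 genes, and the 250 bases before each start were searched on both strands for 4 motifs. The NF-Y box CCAAT, bound by a partner factor of the sterol regulatory element binding proteins, was present in 19 of the 25 genes, against 37.0% of 27305 genes with such a promoter and 42.3% of the 7830 of them that were also tested in OCI-LY10. The core of the sterol regulatory element, TCACCCCAC, was found in SREBF2 alone of the 25, against 0.45% of the 27305 genes and 0.524% of the 7830 tested. The E-box CACGTG was present in 3 of the 25 (SC5D, INSIG1 and SCAP), against 7.73% of the 27305 and 11.9% of the 7830 tested. The EGR1 motif GCGTGGGCG was present in 1 (LSS), against 0.886% and 1.58%. A match describes the letters in this window and is not evidence of binding. Shown are SCD, whose RNA was lower in OCI-LY10, SREBF2, which holds the sterol regulatory element beside an inverted CCAAT, and INSIG1 and LSS, whose RNA was higher under the SUDHL2 label, LSS with the EGR1 motif. Each is written from 5′ to 3′ on the gene's own strand, at chr10:100346983-100347232 (plus strand), chr22:41832855-41833104 (plus strand), chr7:155297628-155297877 (plus strand) and chr21:46228775-46229024 (minus strand), with the motifs in capitals.
SCD: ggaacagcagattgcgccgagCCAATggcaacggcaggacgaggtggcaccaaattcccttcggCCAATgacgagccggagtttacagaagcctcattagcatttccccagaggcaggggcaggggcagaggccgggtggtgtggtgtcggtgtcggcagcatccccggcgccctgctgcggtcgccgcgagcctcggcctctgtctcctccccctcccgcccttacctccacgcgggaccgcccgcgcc
SREBF2: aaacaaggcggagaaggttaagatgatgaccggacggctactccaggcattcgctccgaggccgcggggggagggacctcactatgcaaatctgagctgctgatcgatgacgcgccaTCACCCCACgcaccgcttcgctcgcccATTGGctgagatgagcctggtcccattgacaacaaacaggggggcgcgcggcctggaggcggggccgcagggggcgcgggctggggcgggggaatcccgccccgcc
INSIG1: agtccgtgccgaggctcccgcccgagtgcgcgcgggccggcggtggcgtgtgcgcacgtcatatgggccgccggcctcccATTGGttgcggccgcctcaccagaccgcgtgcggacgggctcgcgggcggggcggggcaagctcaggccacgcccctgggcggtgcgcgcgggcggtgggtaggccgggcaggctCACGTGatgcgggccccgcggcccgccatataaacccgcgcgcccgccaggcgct
LSS: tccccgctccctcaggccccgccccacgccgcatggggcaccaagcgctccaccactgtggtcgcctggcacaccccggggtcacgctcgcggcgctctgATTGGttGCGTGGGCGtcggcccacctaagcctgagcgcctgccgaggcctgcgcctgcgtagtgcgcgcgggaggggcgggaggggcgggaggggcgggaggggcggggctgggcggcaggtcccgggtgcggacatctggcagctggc

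OCI-LY10 is the line with replicates, and there the 29 genes held no common direction. SCD, the desaturase that makes monounsaturated fatty acids, was lower with both hairpin labels and was the 1 gene of the 29 that passed the test. The other 28 did not pass, with differences between −0.18 and 0.41 on the log2(FPKM + 1) scale. Both hairpins were averaged and set against control in limma across 10612 genes that reached 1 FPKM in 3 or more OCI-LY10 libraries, a filter that all 29 genes met, and a gene was called at a Benjamini-Hochberg adjusted p under 0.05. So 1 of 29 was called, a smaller share than the 8.56% of all tested genes (5.84% higher and 2.71% lower). At an unadjusted p under 0.05 there were 7 of 29, against 26.1% of all tested genes. The median difference was −0.02 for the 29 genes and 0.03 for all tested genes. Separate cultures for the replicates are not named in the labels, and the spread behind each p-value may therefore be technical. In bulk RNA a lower share of a kind of cell and less RNA per cell cannot be told apart. Without shEGR1#8 replicate 3, 4 of the 29 were called (SCD, MSMO1, HSD17B7 and SC5D), and the count over all genes was 1312. Without any 1 control library that count lay between 285 and 315.

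**Figure D1:**
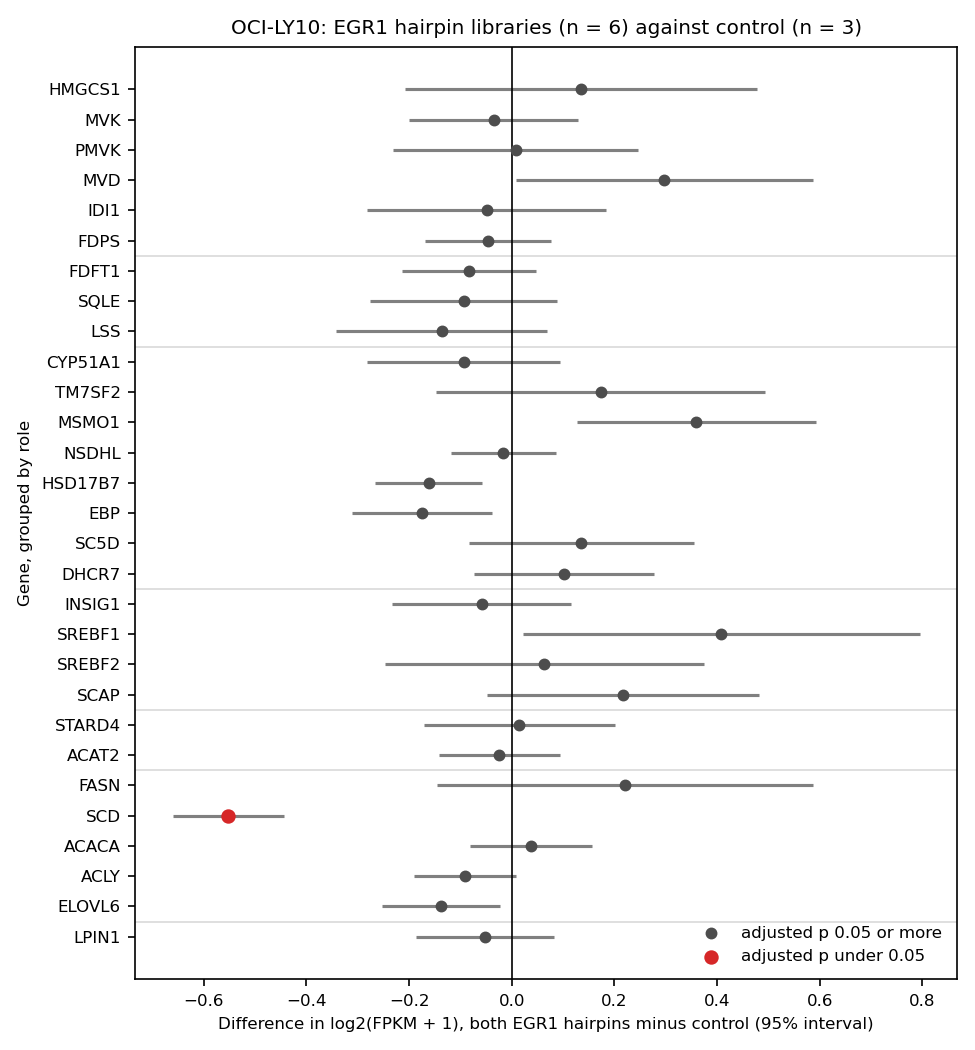
Differences of the 29 genes in OCI-LY10, average of both EGR1 hairpin labels minus control in log2(FPKM + 1), with 95% intervals from limma; genes run down the page by role. SCD, in red, lies at −0.55 and is the 1 gene with an adjusted p under 0.05, while the other intervals lie nearer to or across 0.

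SCD read 77.5, 83.5 and 74.9 FPKM in OCI-LY10 libraries labelled shEGR1#8, 71.0, 70.6 and 68.9 FPKM in those labelled shEGR1#9 and 112, 108 and 108 FPKM in controls. All 6 hairpin libraries lay below all 3 controls, and the lowest control (108 FPKM) stood well above the highest hairpin library (83.5 FPKM). The means were 78.6 ± 4.40 and 70.2 ± 1.12 FPKM, against 109.4 ± 2.21 FPKM in control (SD, n = 3 each), a ratio of 0.68 for both hairpins together. The log2 difference was −0.55 (95% interval −0.66 to −0.44, limma adjusted p = 0.000399), with −0.47 for shEGR1#8 (adjusted p = 0.0026) and −0.63 for shEGR1#9 (adjusted p = 0.000649). SCD was also the 1 gene of the 29 called in each of these single contrasts, where 5.33% (shEGR1#8) and 5.09% (shEGR1#9) of all tested genes were called; both share their controls. Leaving out any 1 library kept the averaged difference between −0.57 and −0.54, and SCD was called each time.

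The other enzymes of fatty acid synthesis did not pass. FASN, the synthase that builds palmitate, read 41.4, 51.0 and 67.2 FPKM with shEGR1#8, 40.3, 48.9 and 52.4 FPKM with shEGR1#9 and 42.5, 50.7 and 35.2 FPKM in control. Its groups overlapped, the highest value was that of shEGR1#8 replicate 3, and the log2 difference was 0.22 (limma adjusted p = 0.419). ELOVL6, which elongates palmitate, read 6.17, 6.49 and 5.93 FPKM with shEGR1#8, 6.10, 6.07 and 6.24 FPKM with shEGR1#9 and 6.55, 7.10 and 7.01 FPKM in control. All 6 of its hairpin libraries lay below the controls, by a small amount (log2 difference −0.14, unadjusted p = 0.0244, limma adjusted p = 0.131). ACLY, which makes cytosolic acetyl-CoA from citrate, also had its 6 hairpin libraries (115 to 123 FPKM) below the controls (125 to 128 FPKM), with a difference of −0.09 (limma adjusted p = 0.228). For ACACA, the acetyl-CoA carboxylase that commits acetyl-CoA to fatty acids, the values were 10.2, 10.8 and 10.5 FPKM with shEGR1#8, 10.2, 9.68 and 10.04 FPKM with shEGR1#9 and 9.24, 10.1 and 10.5 FPKM in control, and they overlapped (0.04, limma adjusted p = 0.68). LPIN1, a phosphatidate phosphatase of glycerolipid synthesis, read 2.62, 2.97 and 2.77 FPKM, 2.74, 2.77 and 3.01 FPKM and, in control, 3.00, 3.06 and 2.80 FPKM (−0.05, limma adjusted p = 0.604).

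**Figure D2:**
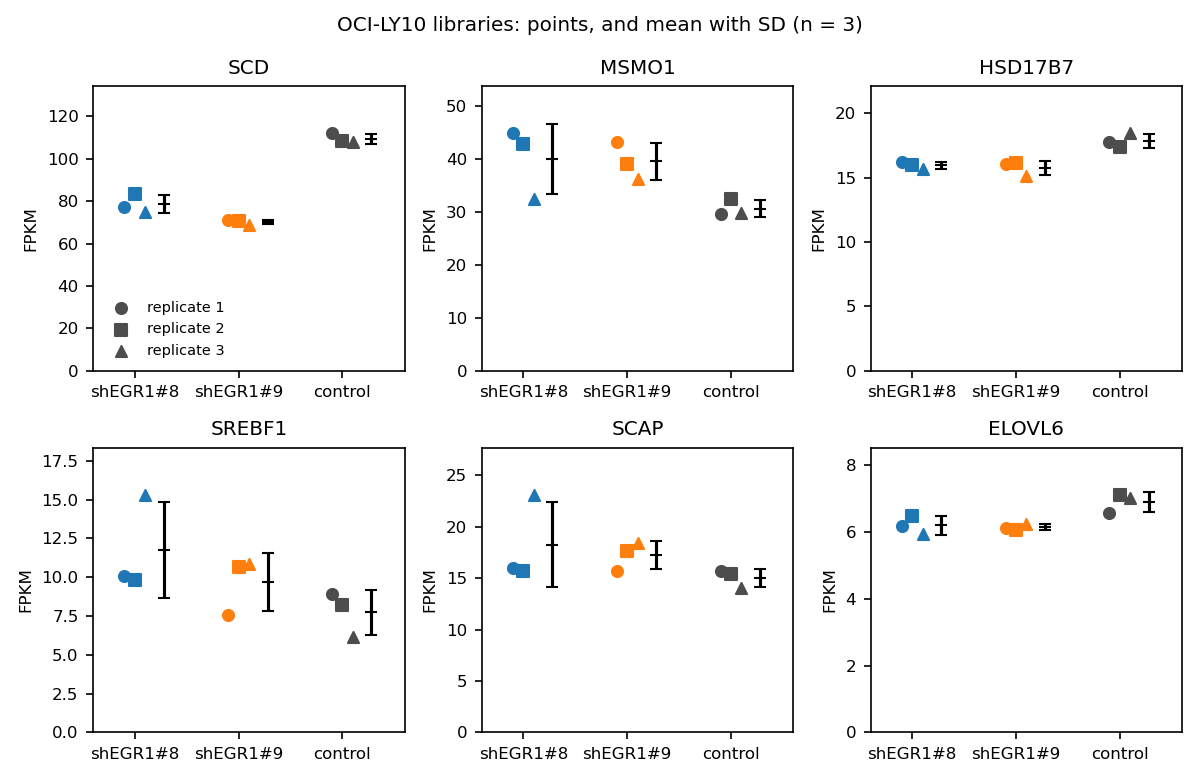
FPKM of 6 genes in the 9 OCI-LY10 libraries, with shEGR1#8, shEGR1#9 and control from left to right; markers give the replicate and bars the mean with its SD (n = 3), on axes that start at 0. SCD sits at 68.9 to 83.5 FPKM in hairpin libraries and at 108 to 112 FPKM in controls, while SREBF1 and SCAP show the high value of shEGR1#8 replicate 3.

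Among the steps that turn lanosterol into cholesterol, genes differed in both directions and none of the 8 was called, with 3 at an unadjusted p under 0.05. MSMO1, the methylsterol monooxygenase, read 44.8, 42.8 and 32.4 FPKM with shEGR1#8, 43.3, 39.0 and 36.3 FPKM with shEGR1#9 and 29.6, 32.5 and 29.7 FPKM in control. Of the 6 hairpin libraries 5 lay above all controls, and the exception was shEGR1#8 replicate 3. Its log2 difference was 0.36 (SE 0.103, limma adjusted p = 0.0664), and 0.43 (adjusted p = 0.00586) without that library. With the replicate number as a block MSMO1 was called (limma adjusted p = 0.0447). HSD17B7, a ketosteroid reductase, read 16.2, 16.0 and 15.7 FPKM with shEGR1#8, 16.0, 16.1 and 15.1 FPKM with shEGR1#9 and 17.8, 17.3 and 18.4 FPKM in control, all 6 hairpin libraries below the controls (−0.16, SE 0.046, limma adjusted p = 0.0654). HSD17B7 and FDPS have near-identical pseudogene copies in the genome, and ACAT2 overlaps TCP1 on the other strand; how such reads were shared is not given in the sources used here. EBP, the sterol isomerase, read 57.8, 54.5 and 61.6 FPKM with shEGR1#8, 58.6, 54.9 and 54.9 FPKM with shEGR1#9 and 68.5, 60.2 and 65.1 FPKM in control, with 5 of 6 hairpin libraries below the controls (−0.18, limma adjusted p = 0.108). SC5D, a sterol desaturase, differed by 0.14 (limma adjusted p = 0.407), and by 0.21 (adjusted p = 0.0327) without shEGR1#8 replicate 3, in which it had its lowest value of all 9 libraries (10.6 FPKM). DHCR7, the reductase of the last step, read 34.3, 36.6 and 42.5 FPKM with shEGR1#8, 34.0, 35.8 and 37.2 FPKM with shEGR1#9 and 37.3, 32.2 and 33.0 FPKM in control (0.10, limma adjusted p = 0.437). CYP51A1, TM7SF2 and NSDHL, which carry out demethylation, reduction and decarboxylation steps, had differences between −0.09 and 0.17.

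In the early pathway the groups mostly overlapped, and none of 9 genes was called. HMGCS1, which makes HMG-CoA, read 52.3, 52.5 and 40.7 FPKM with shEGR1#8, 49.1, 45.5 and 43.8 FPKM with shEGR1#9 and 49.2, 31.4 and 50.7 FPKM in control. Control replicate 2 was the lowest of all 9 libraries, and the difference of 0.13 (limma adjusted p = 0.6) turned to −0.08 without it. MVD, the decarboxylase that yields isopentenyl diphosphate, read 10.3, 13.1 and 14.0 FPKM with shEGR1#8, 10.8, 12.2 and 12.0 FPKM with shEGR1#9 and 9.51, 11.9 and 7.78 FPKM in control. For MVD 4 of 6 hairpin libraries lay above all controls (0.30, SE 0.128, limma adjusted p = 0.181). IDI1, the isopentenyl diphosphate isomerase, read 83.9, 91.9 and 67.2 FPKM with shEGR1#8, 81.7, 78.3 and 65.5 FPKM with shEGR1#9 and 81.6, 80.5 and 78.6 FPKM in control (−0.05, limma adjusted p = 0.789). SQLE, the squalene epoxidase, read 66.2, 83.0 and 63.4 FPKM with shEGR1#8, 71.3, 73.6 and 69.1 FPKM with shEGR1#9 and 76.3, 74.7 and 76.1 FPKM in control. Its difference of −0.09 (limma adjusted p = 0.488) lay within the spread, as did −0.08 for FDFT1, the squalene synthase (limma adjusted p = 0.39). LSS, which closes the sterol rings, read 46.7, 52.1 and 60.1 FPKM with shEGR1#8, 45.5, 52.1 and 48.2 FPKM with shEGR1#9 and 59.8, 58.0 and 49.8 FPKM in control (−0.14, limma adjusted p = 0.374). MVK, PMVK and FDPS lay between −0.05 and 0.01.

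The regulators did not pass either. SREBF1, which encodes the form of the transcription factor best known for fatty acid genes, read 10.1, 9.83 and 15.3 FPKM with shEGR1#8, 7.54, 10.7 and 10.9 FPKM with shEGR1#9 and 8.94, 8.18 and 6.13 FPKM in control. Of its 6 hairpin libraries 5 lay above all controls (0.41, SE 0.171, unadjusted p = 0.0405, limma adjusted p = 0.171), and the difference was 0.31 without shEGR1#8 replicate 3. SCAP had all 6 hairpin libraries (15.698 to 23.096 FPKM) above the controls (14.006 to 15.684 FPKM), though the nearest pair almost touched, with a difference of 0.22 (limma adjusted p = 0.275). SREBF2, the form best known for cholesterol genes, read 38.9, 53.6 and 62.5 FPKM with shEGR1#8, 50.4, 44.1 and 57.3 FPKM with shEGR1#9 and 50.5, 48.5 and 45.9 FPKM in control (0.06, limma adjusted p = 0.794). INSIG1 read 63.7, 68.5 and 54.4 FPKM with shEGR1#8, 58.6, 55.4 and 52.2 FPKM with shEGR1#9 and 62.9, 62.7 and 57.5 FPKM in control (−0.06, limma adjusted p = 0.658). ACAT2 read 62.9, 64.2 and 56.4 FPKM with shEGR1#8, 59.3, 57.9 and 56.4 FPKM with shEGR1#9 and 60.6, 60.1 and 60.7 FPKM in control, and it and STARD4 differed by −0.02 and 0.02. Over the 29 genes, 4 had all 6 hairpin libraries below all 3 controls (SCD, HSD17B7, ACLY and ELOVL6), where 8.22% of tested genes did, and SCAP alone had all above, where 12.9% of tested genes did.

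The replicates of 1 group also differed within the pathway. In shEGR1#8 replicate 3 the genes TM7SF2, SREBF1, FASN, SCAP and SREBF2 stood 0.44 to 0.59 log2 units above the mean of shEGR1#8 replicates 1 and 2, while SC5D, MSMO1, IDI1 and HMGCS1 stood 0.36 to 0.43 units below it. SCD differed little there (−0.10). In shEGR1#8 replicate 2, 8 genes had their highest value of all 9 libraries (HMGCS1, IDI1, SQLE, CYP51A1, INSIG1, STARD4, ACAT2 and ACACA), as 10.3% of tested genes did. In shEGR1#9 replicate 3, 7 had their lowest (IDI1, FDPS, NSDHL, HSD17B7, INSIG1, ACAT2 and SCD), as 6.72% of tested genes did. The rough estimate of relative depth, given above, differed between these libraries, and the part of depth in these values was not tested.

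The 2 EGR1 hairpins were also set against each other, in the main fit, which takes no account of replicate numbers. None of the 29 genes and none of 10612 tested genes was called by limma between shEGR1#9 and shEGR1#8 in OCI-LY10 (0% called), with 267 genes (2.52%) and, of the 29, SCD alone at an unadjusted p under 0.05. SCD was lower with shEGR1#9 by −0.16 on the log2 scale (95% interval −0.29 to −0.04, unadjusted p = 0.0177). Of the 29 genes 25 were lower with shEGR1#9 than with shEGR1#8, with a median of −0.06 against −0.00 over all tested genes. The share of all tested genes that were lower is not given. The part of the single libraries described above in this count was not tested. The interval for INSIG1, −0.36 to 0.04, and that for SREBF1, −0.69 to 0.21, leave differences of either kind possible.

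**Figure D3:**
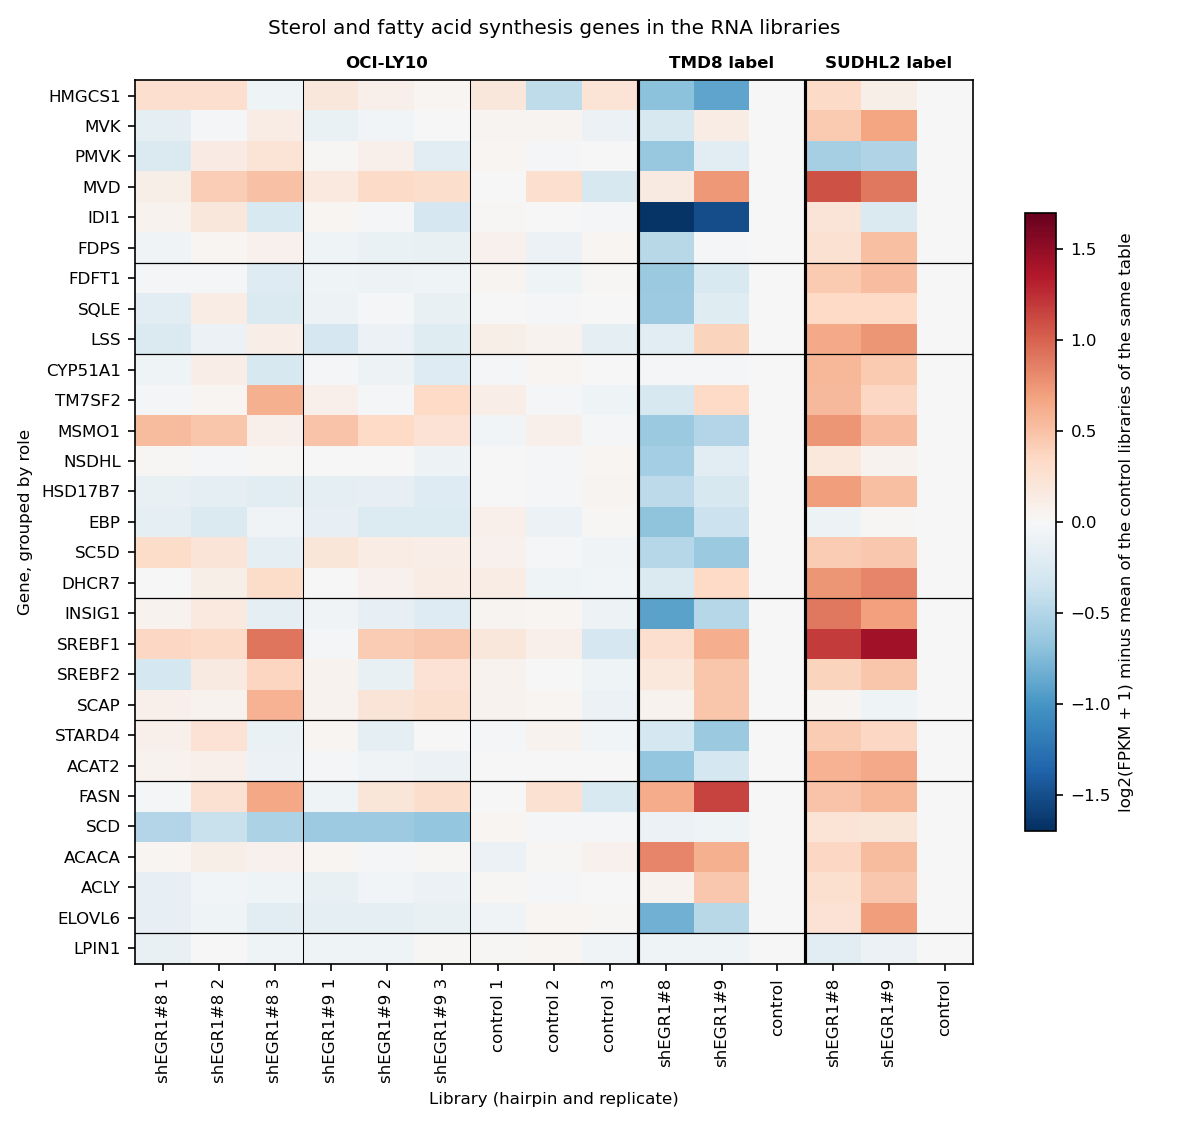
log2(FPKM + 1) of the 29 genes (rows, by role) in 15 libraries (columns), each minus the mean of the control libraries of its own table; within a table shEGR1#8 and shEGR1#9 stand left of control. SCD is lower across the 6 OCI-LY10 hairpin columns, IDI1 is lowest under the TMD8 label, and most rows are above 0 under the SUDHL2 label.

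Under the TMD8 label, with 1 library per hairpin and no test possible, the sterol enzymes mostly read lower than control while FASN, ACACA and SREBF1 read higher. A gene was counted past 1.5-fold on the log2(FPKM + 1) scale. With shEGR1#8, 10 of the 29 genes were past 1.5-fold lower, where 19.9% of all genes compared were, and 2 were past it higher, where 13.8% were. The median was −0.30 for the 29 genes, against −0.09 for all genes. With shEGR1#9 there were 4 lower (18.4% of all genes) and 4 higher (13.2%), and the medians were −0.07 and 0.00. Scaling the libraries by the median ratio moved the median of all genes up by 0.13 log2 units for shEGR1#8 and 0.05 for shEGR1#9. It left 3 lower (15.2% of all genes) and 2 higher (17.6%) with shEGR1#8, and 2 lower (16.6%) and 4 higher (15.0%) with shEGR1#9, so the lower share of the 29 with shEGR1#8 was above that of all genes only before scaling. Below control at any size were 22 of the 29 genes with shEGR1#8, where 55.7% of all genes were, and 18 with shEGR1#9, where 49.3% were; 18 were below with both hairpins (41.4% of all genes), and 14 after scaling (36.5%). The rough estimate of relative depth and the share of short RNA, given above, differed between the TMD8 hairpin and control libraries. The part of depth and of short RNA in these differences was not tested.

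IDI1 stood furthest below control, at 38.3 FPKM with shEGR1#8 and 43.2 FPKM with shEGR1#9, against 124 FPKM in the TMD8 control. Its log2 differences were −1.67 and −1.50, and −1.53 and −1.45 after scaling. All TMD8 differences rest on this 1 control library, whose own deviation cannot be told apart from an effect of the hairpins. Under the SUDHL2 label IDI1 read 42.4 FPKM in control, and 49.3 and 35.7 FPKM with the hairpins. HMGCS1 read 46.2 and 40.3 FPKM, against 75.6 FPKM in control (−0.70 and −0.89), and was past 1.5-fold with both hairpins before scaling and with shEGR1#9 after it. INSIG1 read 43.6 and 58.5 FPKM, against 82.5 FPKM in control (−0.91 and −0.49). FASN read 48.4 and 69.7 FPKM, against 30.9 FPKM in control (0.63 and 1.15), and ACACA 14.7 and 12.5 FPKM, against 7.87 FPKM (0.83 and 0.60); both were past 1.5-fold higher with both hairpins, scaled or not. SREBF1 read 9.70 and 12.4 FPKM, against 7.73 FPKM in control, and SREBF2 49.4 and 60.9 FPKM, against 43.5 FPKM. SCD was close to control here, at 102 and 105 FPKM, against 109.7 FPKM (−0.11 and −0.07, and 0.04 and −0.02 after scaling).

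Other genes that stood out elsewhere had these values under the TMD8 label. MVD read 23.3 FPKM with shEGR1#8 and 35.5 FPKM with shEGR1#9, against 20.9 FPKM in control. LSS read 22.4 and 33.6 FPKM, against 25.7 FPKM, and DHCR7 40.3 and 61.5 FPKM, against 48.2 FPKM, so both stood on either side of control. MSMO1 read 25.1 and 27.6 FPKM, against 39.3 FPKM in control, SQLE 72.1 and 95.9 FPKM, against 111 FPKM, and ACAT2 29.3 and 37.8 FPKM, against 46.5 FPKM. These 3 lay below control with both hairpins. HSD17B7 read 4.93 and 5.69 FPKM, against 7.09 FPKM, EBP 43.6 and 54.4 FPKM, against 70.5 FPKM, and ELOVL6, at the low end, 1.27 and 1.88 FPKM, against 2.99 FPKM. The difference of ELOVL6 with shEGR1#8 was −0.81, and −1.17 with a pseudocount of 0.1 in place of 1. LPIN1 read 6.68 and 6.70 FPKM, against 7.08 FPKM. Of the regulators, SREBF1, SREBF2 and SCAP were above control with both hairpins and INSIG1 below it, and all 8 genes between lanosterol and cholesterol were below control with shEGR1#8, where 55.7% of all genes were. After scaling 7 of those 8 were below, with CYP51A1 above.

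**Figure D4:**
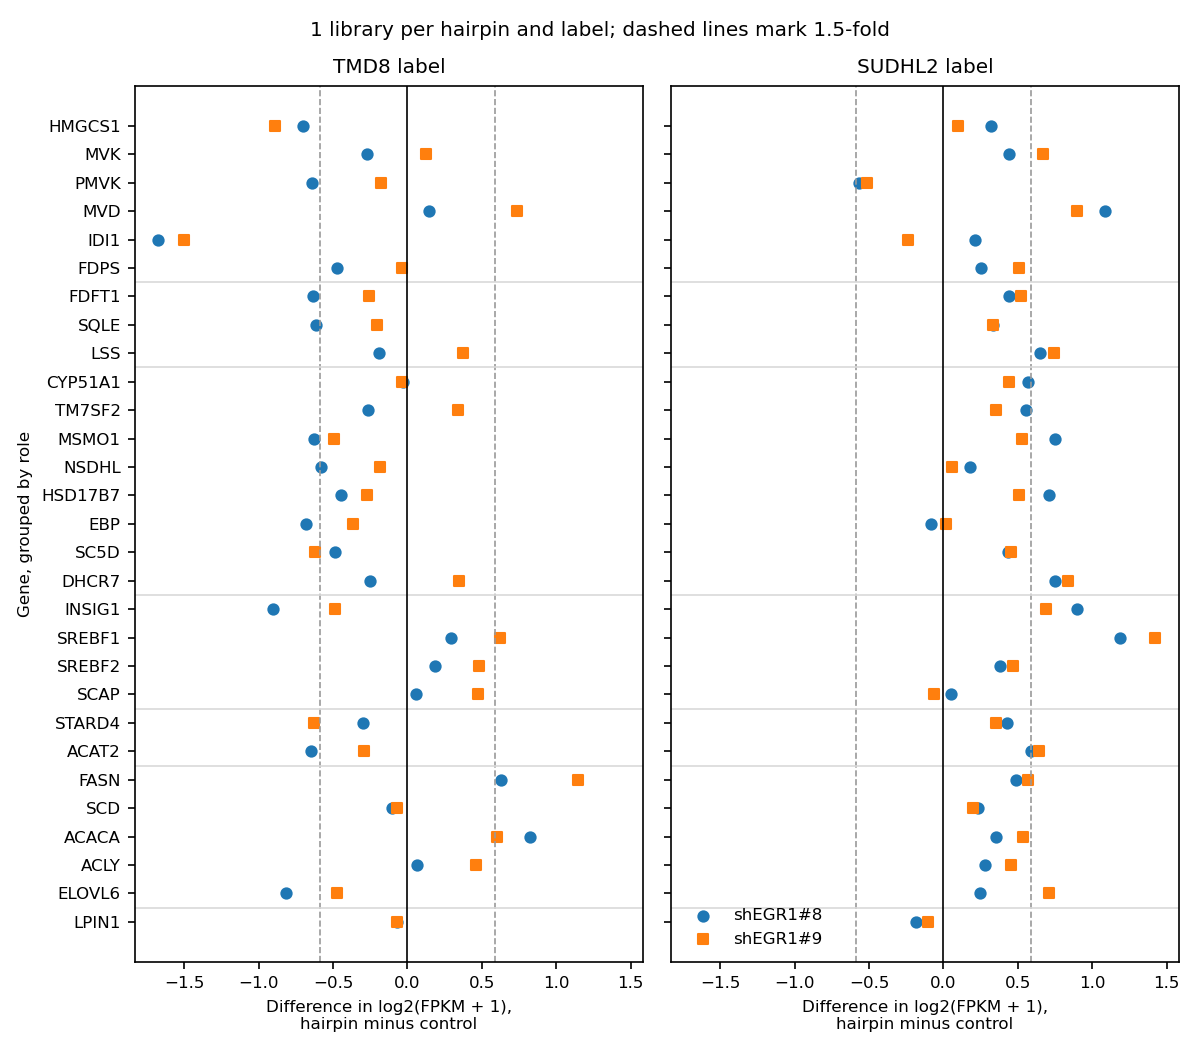
Differences of the 29 genes in log2(FPKM + 1), hairpin minus control, under the TMD8 label (left) and the SUDHL2 label (right), with circles for shEGR1#8 and squares for shEGR1#9, 1 library each. IDI1 lies at −1.67 and −1.50 on the left, and on the right 24 of the 29 genes lie above 0 with both hairpins.

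Under the SUDHL2 label most of the 29 genes read higher with both hairpin labels, 24 of them, where 37.3% of all genes did, and 2 read lower with both (PMVK and LPIN1). At any size, 26 (shEGR1#8) and 25 (shEGR1#9) of the 29 were above control, where 51.0% of all genes were with either hairpin. Past 1.5-fold higher there were 8 of 29 with shEGR1#8, where 6.12% of all genes were, and 8 with shEGR1#9, where 9.69% were. None of the 29 was past 1.5-fold lower, where 3.90% and 8.28% of all genes were. After scaling the counts past 1.5-fold higher were 7 with shEGR1#8 (5.96% of all genes) and 8 with shEGR1#9 (9.55%). The median difference of the 29 genes was 0.43 with shEGR1#8 and 0.47 with shEGR1#9, against 0.01 over all genes with either hairpin. Both hairpins are set against the same single control library, so these are not independent comparisons, and a library's own deviation cannot be told apart from an effect of the hairpin.

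The gene furthest above control was SREBF1, at 13.2 FPKM with shEGR1#8 and 15.8 FPKM with shEGR1#9, against 5.27 FPKM in the SUDHL2 control (log2 differences 1.18 and 1.42). MVD read 42.0 and 36.8 FPKM, against 19.3 FPKM in control (1.08 and 0.90), and INSIG1 76.1 and 65.9 FPKM, against 40.4 FPKM (0.90 and 0.69). DHCR7 read 63.4 and 67.5 FPKM, against 37.4 FPKM (0.75 and 0.83). LSS read 39.5 and 42.4 FPKM, against 24.9 FPKM in control (0.65 and 0.75), and ACAT2, the cytosolic thiolase that supplies acetoacetyl-CoA, 41.6 and 43.3 FPKM, against 27.3 FPKM (0.59 and 0.64). These 6 genes were past 1.5-fold higher with both hairpins, and 5 of them, without ACAT2, after scaling. Of these 6, INSIG1 and LSS, shown above, and MVD and DHCR7 hold CCAAT in the upstream window, SREBF1 does not, and ACAT2 was not matched. HMGCS1 and IDI1, the genes past 1.5-fold lower with both hairpins under the TMD8 label, hold it as well. So did 19 of all 25 matched genes of the list, against 42.3% of tested genes with a promoter. CCAAT therefore does not set these genes apart from the rest of the list.

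Other enzymes were higher by less or with 1 hairpin. MSMO1 read 30.3 and 25.8 FPKM, against 17.6 FPKM in the SUDHL2 control, and FASN 70.9 and 74.9 FPKM, against 50.2 FPKM. FDFT1 read 209 and 221 FPKM, against 154 FPKM in control, and HMGCS1 52.2 and 44.6 FPKM, against 41.6 FPKM. SREBF2 read 61.2 and 65.0 FPKM, against 46.7 FPKM, while SCAP was close to control at 17.8 and 16.3 FPKM, against 17.2 FPKM. SCD read 116 and 113 FPKM, against 98.5 FPKM in control (0.23 and 0.20). HSD17B7 read 9.50 and 8.13 FPKM, against 5.42 FPKM, and ELOVL6 2.66 and 4.04 FPKM, against 2.09 FPKM. EBP was close to control, at 58.4 and 62.6 FPKM, against 61.9 FPKM. SQLE read 87.9 FPKM with either hairpin, against 69.4 FPKM, and IDI1 stood on either side of control, at 49.3 and 35.7 FPKM, against 42.4 FPKM. ACACA read 13.9 and 15.9 FPKM, against 10.6 FPKM, and LPIN1 11.4 and 12.1 FPKM, against 13.1 FPKM. PMVK, the phosphomevalonate kinase, was the gene furthest below control, at 27.3 and 28.3 FPKM, against 40.9 FPKM (−0.57 and −0.52).

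Set side by side, the labels gave no shared direction for the pathway. SCD was lower in all 6 OCI-LY10 hairpin libraries, close to control under the TMD8 label and above it under the SUDHL2 label. In 14 of the 29 genes, and in 11 after scaling, both hairpins lay below control under the TMD8 label and above it under the SUDHL2 label, among them INSIG1 and MSMO1. Of the genes compared under both labels 8.13% did so, and 6.31% after scaling. The hairpins of a label share 1 control library, and correlations of libraries between these 2 labels overlapped those within them, as given above. SREBF1 was above control with both hairpins under both of these labels, and its OCI-LY10 mean was 11.7 ± 3.10 FPKM with shEGR1#8 and 9.70 ± 1.87 FPKM with shEGR1#9, against 7.75 ± 1.45 FPKM in control (SD, n = 3 each). The difference between labels was not tested, since 2 of them have 1 library per group.

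Levels per length put the same enzymes near the top in each control. In OCI-LY10 the control medians were highest for ACLY (127 FPKM), FDPS (112 FPKM) and SCD (108 FPKM), and lowest for TM7SF2 (3.94 FPKM) and LPIN1 (3.00 FPKM). The 3 control values of ACLY (125 to 128 FPKM) lay above those of FDPS (102 to 115 FPKM), which overlapped those of SCD (108 to 112 FPKM). IDI1 (78.6 to 81.6 FPKM) lay below SCD and just above SQLE (74.7 to 76.3 FPKM), and FDFT1 (64.5 to 69.7 FPKM) overlapped EBP (60.2 to 68.5 FPKM). FDFT1 had the highest level of the 29 under the TMD8 label (211 FPKM) and the SUDHL2 label (154 FPKM), and ELOVL6 the lowest (2.99 and 2.09 FPKM). Among the regulators SREBF1 was lowest and SCAP next in all 3 control groups, with INSIG1 above SREBF2 in OCI-LY10 and under the TMD8 label and below it under the SUDHL2 label. Levels are set across tables as a description, since the tables may have been scaled separately.

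Genes around the pathway were read from 6 lists for the same averaged OCI-LY10 contrast. Together 8 of their 94 tested genes were called, close to the 8.56% of all tested genes, and 27 were at an unadjusted p under 0.05, where 26.1% of all tested genes were. Of 16 genes of SREBP processing and its partners, all tested, 1 was called: NFYA, a subunit of the factor that binds CCAAT, which fell to 27.7 ± 0.568 FPKM with shEGR1#8 and 26.3 ± 0.258 FPKM with shEGR1#9, against 32.9 ± 1.09 FPKM in control (SD, n = 3 each; log2 difference −0.27, limma adjusted p = 0.00716). Its call was lost without control replicate 3 (adjusted p = 0.0547). Of 20 genes of sterol storage, transport and liver X receptor control 15 were tested and 2 called. NPC2, which moves cholesterol out of lysosomes, rose by 0.37 (limma adjusted p = 0.0187), and PITPNC1, a phosphatidylinositol transfer protein, fell by 0.42 (adjusted p = 0.00324). None of 15 genes of the isoprenoid branch was called, with 4 at an unadjusted p under 0.05.

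Of 23 genes of fatty acid supply, elongation and activation 18 were tested and 3 called. MLX, the partner of the glucose-responsive MLXIPL and MLXIP factors, fell to 21.9 ± 0.127 FPKM with shEGR1#8 and 21.7 ± 0.971 FPKM with shEGR1#9, against 33.4 ± 2.18 FPKM in control (SD, n = 3 each; −0.59, limma adjusted p = 0.00049). ACSL1, a long-chain acyl-CoA synthetase, fell by 0.39 (limma adjusted p = 0.00254). ACSS2, which makes acetyl-CoA from acetate, rose by 0.30 (limma adjusted p = 0.0393) at a low level, 2.56 ± 0.084 and 2.28 ± 0.246 FPKM, against 1.78 ± 0.207 FPKM in control (SD, n = 3 each), and its call held in 3 of the 9 fits without 1 library, and in none without a control (adjusted p 0.0776 to 0.163). Of 14 glycerolipid genes 12 were tested and GPD1L, a glycerol phosphate dehydrogenase, fell by 0.25 (limma adjusted p = 0.0184). Of 18 genes of fatty acid oxidation, all tested, HADH fell by 0.27 (limma adjusted p = 0.0225). The calls of NPC2, GPD1L and HADH were also lost without any 1 control library (limma adjusted p 0.0712 to 0.112). The list medians lay between −0.08 and 0.04, against 0.03 over all tested genes. In the same contrast the B-cell markers CD79A and BLNK rose by 0.65 and 0.19 (limma adjusted p = 0.00926 and 0.0477), CD79A to 939 ± 141 FPKM with shEGR1#8 and 916 ± 102 FPKM with shEGR1#9, against 591 ± 65.3 FPKM in control (SD, n = 3 each), and their part in these results was not tested. CD79A missed the threshold when control replicate 2 (limma adjusted p = 0.0527) or 3 (0.0547) was left out. That of BLNK held in 2 of the 9 fits without 1 library and was lost with quantile normalization (0.053), median-ratio scaling (0.0764) and a replicate block (0.0656).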

How the data were processed

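RNA of 15 libraries was analysed: 9 of OCI-LY10 and 3 each under the TMD8 and SUDHL2 labels, grouped by hairpin from titles and treatment labels. The 4 samples of EGR1 chromatin immunoprecipitation and input were not used here. The deposited tables, 1 per line, give 1 value per gene and library, read as FPKM (fragments scaled to gene length and library size); the unit is not named in the labels or headers and was inferred from the values. Tools named in the submitters' processing notes are Bowtie2, HISAT and StringTie, with the build hg19, and per the labels' protocols a TruSeq RNA kit made the libraries. Their roles and versions, the annotation, the strand setting and whether libraries were scaled to each other: not given in the sources used here. FPKM depends on what else a library holds. The share of short RNA given here is of the FPKM sum and not of reads. How far it bears on the values of other genes was not tested.

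Lines with a repeated name were left out (4, 10 and 10 in OCI-LY10, TMD8 and SUDHL2). From the SUDHL2 values 430 lines were left out, starting at a line that merges with TMD8 text (429 of them equal the last lines of TMD8). Values were taken as log2(FPKM + 1), which understates changes of low genes. For OCI-LY10, a group-means model with the prior variance following mean expression was fitted by limma 3.58.1 under R 4.3.3, over genes that reached 1 FPKM in 3 or more libraries. P-values had Benjamini-Hochberg adjustment, and this fit was tested on simulated data. Same-numbered shEGR1#8 and shEGR1#9 libraries deviated together from their group means (correlations over genes 0.134 to 0.26). However, shEGR1#8 replicate 2 and shEGR1#9 replicate 1, of unlike number, reached 0.146, and the labels name no pairs. The values given for shEGR1#9 against shEGR1#8 come from the fit without a replicate term. Pairs entered only in the alternative with a replicate block. TMD8 and SUDHL2 (1 library per group) were compared without a test, over genes with at least 1 FPKM in 1 library. Read totals and counts behind values are unknown, so no counting interval is given.

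The 29 genes and the surrounding lists were chosen with earlier results of these data known. Values in each library are given for genes called in OCI-LY10, at an unadjusted p under 0.05 in the averaged contrast, or past 1.5-fold with both hairpins under the TMD8 or SUDHL2 label, and for HMGCS1, SQLE, INSIG1, SREBF1, SREBF2, FASN, SCD and LPIN1. From the lists, called genes are named. ACLY, SCAP, PMVK, FDFT1 and SC5D were named after their values were seen. Promoters come from RefSeq (GRCh38.p14), those of chromosome 8 were left out before genes were matched, and gene coordinates of hg19 are not used here. Python 3.11.15, numpy 2.4.6, pandas 2.3.3 and matplotlib 3.10.9 were used. The alternatives tried were another pseudocount (0.1), no filter, quantile normalization, median-ratio scaling, array weights, a replicate block and leaving out each library.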

Additional observations from a re-analysis of the deposited data

Results flagged for a closer look

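Genes are given here whose hairpin libraries all lay on one side of control under 1 label and all on the other side under another. The value is the mean hairpin difference under the first label minus that under the second, in log2(FPKM + 1), and none of these differences was tested, since the TMD8 and SUDHL2 labels have 1 library per group. Between the SUDHL2 and TMD8 labels there were 14 such genes of the 29, each above control under the SUDHL2 label and below it under the TMD8 label, as were 8.13% of all genes compared under both. Among the early enzymes, HMGCS1 differed by 1.00, FDPS by 0.64, FDFT1 by 0.92 and SQLE by 0.745. In the later sterol steps, CYP51A1 differed by 0.54, MSMO1 by 1.20, NSDHL by 0.50, HSD17B7 by 0.97 and SC5D by 1.00. INSIG1 differed by 1.49, STARD4 by 0.85 and ACAT2 by 1.09, and of the fatty acid genes SCD differed by 0.30 and ELOVL6 by 1.12. After median-ratio scaling 11 of the 29 genes lay so, against 6.31% of all genes. Between the SUDHL2 label and OCI-LY10, HSD17B7 differed by 0.7695, SCD by 0.7679, ACLY by 0.46 and ELOVL6 by 0.61. Between the TMD8 label and OCI-LY10, ACLY differed by 0.35. For these 2 pairs the share of all genes lying so is not given, so the genes named are not shown to exceed it. In OCI-LY10, 8.22% of tested genes had all 6 hairpin libraries below all 3 controls. Under the SUDHL2 label 37.3% of genes were higher with both hairpins. EGR1 itself ran the other way, below control with both hairpins under the SUDHL2 label and above it with both under the TMD8 label, and its part in these values was not tested.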

How the results depend on the processing

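Read depth, 1 library per group under 2 labels and 3 libraries per group in OCI-LY10 limit these results. SCD was called in OCI-LY10 under every alternative run and with each library left out in turn (adjusted p 4.34e-05 to 0.00518). The count of the 29 genes called was 2 with quantile normalization, 2 with median-ratio scaling, 4 with array weights and 1 to 4 with single libraries left out; for shEGR1#8 alone it was 2 with array weights and 1 to 3 with libraries left out, and for shEGR1#9 alone 5 and 1 to 2. HSD17B7 passed with quantile normalization (adjusted p = 0.0472), median-ratio scaling (0.0457) and array weights (0.0211), MSMO1 (0.00318) and EBP (0.0208) with array weights. Over all genes, the average gave 811 calls with quantile normalization and 902 with median-ratio scaling, against 908 in the main fit (8.56% of 10612). Array weights gave 1914 calls for the average (908 without), 749 for shEGR1#8 (566 without) and 1950 for shEGR1#9 (540 without). The higher counts of the 29 genes with array weights thus came with higher counts over all genes. With single libraries left out, the average gave 285 to 1312, shEGR1#8 134 to 696 (566 with all), shEGR1#9 144 to 1143, and shEGR1#9 against shEGR1#8 0 to 9 (1 with no filter). For the average the count moved by over 1.5 times without any 1 control or without shEGR1#9 replicate 2 or 3 (534 and 539). Fewer libraries are part of each such alternative; the cause of the other changes was not tested.

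Same-numbered hairpin and control libraries of OCI-LY10 did not deviate together (correlations −0.188 to 0.06), so numbers were not taken as pairs against control. Between the hairpins, the alternative with a replicate block also gave 0 calls. With a replicate block, the averaged contrast against control called 2 of the 29 genes and 775 of all genes. The 2 were SCD (limma adjusted p = 0.00256) and MSMO1 (limma adjusted p = 0.0447). For shEGR1#8 alone 1 of the 29 and 349 of all genes were called, and for shEGR1#9 alone 1 and 351.

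Genes near 0 changed sign. With quantile normalization PMVK was −0.0182, STARD4 −0.0199 and ACACA −0.0232, with median-ratio scaling PMVK −0.0174 and STARD4 −0.0094, and with array weights IDI1 0.0336 and ACAT2 0.002. With single libraries left out the ranges were ACACA −0.0094 to 0.0715, HMGCS1 −0.0822 to 0.254, PMVK −0.0403 to 0.0784, STARD4 −0.0287 to 0.0628, MVK −0.0863 to 0.0013, IDI1 −0.0968 to 0.0148, SREBF2 −0.0103 to 0.157 and ACAT2 −0.042 to 0.0042. Under the TMD8 label, median-ratio scaling cut the genes past 1.5-fold with shEGR1#8 to 5, against 12 as deposited. After it CYP51A1 (0.11), SCD (0.04) and LPIN1 (0.05) lay above control with shEGR1#8, and FDPS (0.01) and CYP51A1 (0.02) with shEGR1#9.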
